A study of Mus musculus with 3 samples.

Results

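Laminin and integrin chains were followed across the stroma of the aged mouse thymus. The members were chosen by symbols that name a laminin chain (Lama, Lamb or Lamc with a digit) or an integrin chain (Itga or Itgb with digits or a letter), and 37 of the 32285 genes measured are described: 10 laminin chains (5 alpha, 3 beta and 2 gamma) and 27 integrin chains (18 alpha and 9 beta). Single-cell RNA sequencing had been done on cells lacking the pan-hematopoietic surface protein CD45, taken from thymi of untreated C57BL/6 mice aged 20 months. Of the 3 libraries, 2 came from mice with a Foxn1 lineage trace, one labelled female (Foxn1Lin female) and one labelled male (Foxn1Lin male), and the last from wild type mice labelled male (wild type male), so that n = 1 in every group. In the lineage trace, Cre expressed from Foxn1, which is active in thymic epithelial cells, turns on a tdTomato reporter in those cells and their descendants, so Foxn1Lin and wild type differ in both transgenes. The protocol pooled several thymi in a preparation, and for all libraries it names female mice, against the sex field of the male libraries. For the wild type library, the title reads CD45- but the field for cell type reads CD45-PECAM1+, and it held cells of all classes described here.

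Laminins are the polymers that give a basement membrane its sheet, and each molecule is a trimer of 1 alpha, 1 beta and 1 gamma chain. Integrins are heterodimers of 1 alpha and 1 beta chain in the cell surface that bind laminins, collagens, fibronectin, vitronectin or the counter-receptors of other cells. In the thymus, basement membranes surround vessels and lie under the capsule and along epithelial cells. Lama3 and Lamb3 are chains of the laminin of epithelial anchorage, whose receptor is the pair of Itga6 and Itgb4 in hemidesmosomes. Lama2 with Lamb1 or Lamb2 and Lamc1 forms the laminin of muscle and mesenchyme, and Lama4 and Lama5 are the alpha chains of vessel walls.

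Cells were put in classes by raw counts of gate genes, none of which is a member: thymic epithelial cells (TEC) with at least 2 unique molecular identifiers (UMIs) of Epcam, endothelial cells (EC) with at least 2 of Pecam1, fibroblasts (FB) with at least 2 of Pdgfra, mural cells (pericytes and vascular smooth muscle) with at least 5 of Rgs5 and Acta2 together, and mesothelial cells with at least 2 of Upk3b. Barcodes in several classes were dropped. In the order Foxn1Lin female, Foxn1Lin male and wild type male, there were 464, 426 and 867 TEC, 1879, 818 and 857 EC, 1852, 864 and 1707 FB, 426, 449 and 352 mural cells, and 338, 0 and 36 mesothelial cells. All later triplets of values keep this order. Each class held its own markers: their summed level was 7107 to 8954 CPM (UMIs of a gene scaled by the total UMIs of that class and library) for the TEC list in TEC, 7960 to 8540 CPM for the EC list in EC, 15086 to 17583 CPM for the FB list in FB, 14981 to 16464 CPM for the mural list in mural cells and 4607 to 4766 CPM for the mesothelial list in mesothelial cells. The mesothelial gate also held the FB list at 9535 and 10305 CPM and the TEC list at 2161 and 1083 CPM, against 94.1 to 409 CPM of the TEC list in EC, FB and mural cells. The TEC gate asks for Epcam, so epithelial-derived cells with little of it are outside the class. A total of 8, 14 and 3 cell barcodes were shared between pairs of libraries, and the filtered libraries summed to 33386621 to 61258534 UMIs.

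The promoters below are shown because they belong to the laminin chains that led in TEC (Lamb3), in FB (Lama2) and in mural cells among alpha chains (Lama5). They are RefSeq windows on GRCm38.p6, 250 bases before to 50 after a start, and the table held 27 windows for 24 of the 37 members. Capitals mark CG dinucleotides. The table holds 2 windows for Lamb3, and the first along the chromosome is shown. That window is chr1:193301744-193302043 on the plus strand, the one of Lama2 is chr10:27616893-27617192 on the minus strand, and that of Lama5 is chr2:180225810-180226109 on the minus strand. 
Lamb3: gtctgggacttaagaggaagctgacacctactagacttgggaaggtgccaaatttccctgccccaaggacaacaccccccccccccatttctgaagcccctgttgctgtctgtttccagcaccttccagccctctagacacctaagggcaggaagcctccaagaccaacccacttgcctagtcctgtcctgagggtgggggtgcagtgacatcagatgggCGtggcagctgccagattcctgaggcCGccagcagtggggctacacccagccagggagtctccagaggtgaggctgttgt
Lama2: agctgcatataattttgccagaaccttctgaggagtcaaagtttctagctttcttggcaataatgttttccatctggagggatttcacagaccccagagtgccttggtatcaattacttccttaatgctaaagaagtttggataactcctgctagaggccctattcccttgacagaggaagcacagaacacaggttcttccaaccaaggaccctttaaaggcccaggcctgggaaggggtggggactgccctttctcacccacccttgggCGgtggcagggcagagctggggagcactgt
Lama5: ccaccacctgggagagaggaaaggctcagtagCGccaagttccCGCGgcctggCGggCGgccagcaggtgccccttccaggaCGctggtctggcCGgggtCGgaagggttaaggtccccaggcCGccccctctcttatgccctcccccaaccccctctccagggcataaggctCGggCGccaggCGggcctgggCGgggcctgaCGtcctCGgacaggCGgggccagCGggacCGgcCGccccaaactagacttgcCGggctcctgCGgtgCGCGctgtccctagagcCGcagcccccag
The window of Lamb3 shown has 2 CG dinucleotides (the other window of Lamb3 has 5) and Lama2 has 1, whereas Lama5 has 24. The median over all 32851 windows in the table was 7, and 20.0% of them have as many as Lama5. The Lama5 window spans the start of its GENCODE gene model, at 180225859 on the minus strand. The Lamb3 and Lama2 windows lie inside their gene models (chr1:193207699-193343878 and chr10:26980036-27619758), so the 3 windows are of unlike starts. These counts describe the windows and were not tied to the levels.

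Between classes, UMI counts were summed per library and class and compared with edgeR's quasi-likelihood test with the library as a block. A gene was called for a class when it was higher than in each of the other classes at a Benjamini-Hochberg adjusted p under 0.05 over the 17581 genes tested, and the fold given is the smallest, over the next class. The 3 libraries differ in labelled sex and genotype, so n counts libraries of stroma and not repeats of a group. Of 35 members tested, 15 were called for a class: 3 for TEC, 1 for EC, 5 for FB, 6 for mural cells and 0 for mesothelial cells. Itgax and Itgb2l were too low to test. Over all genes tested, 10.6% were called for TEC, 7.2% for EC, 2.67% for FB, 4.36% for mural cells and 3.16% for mesothelial cells. In FB (5 of 35) and mural cells (6 of 35) the members' share was above that background, in TEC (3 of 35) it was near it, and in EC (1 of 35) and mesothelial cells it was below. The smallest log2 difference can be above 0 in only 1 class per gene, so its median tends to fall below 0 for any set of genes. Over the 35 members the median was -1.78 for TEC, -1.07 for EC, -1.82 for FB, -1.26 for mural cells and -2.97 for mesothelial cells. Over all genes these medians were -0.53, -0.74, -0.77, -0.81 and -0.92.

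In TEC, Lamb3 was far above every other class. Lamb3, the beta chain of the epithelial anchoring laminin (chr1:193207699-193343878, plus strand), was at 56.9, 46.5 and 52.2 CPM in TEC and at 4.70 CPM or less in every library of the other classes. No library of another class came near the lowest TEC value, and the smallest log2 difference was 3.89, over mesothelial cells (SE 0.42, largest adjusted p = 6.6e-05). Another gene model on the same strand overlaps Lamb3. A Lamb3 UMI was found in 28.4%, 35.2% and 38.5% of TEC, and in 9.53%, 8.56% and 8.76% when each cell was thinned to 2000 UMIs. The same thinned share was 0.510%, 0.229% and 0.875% of mural cells, a class that should lack the chain.

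Lama3, the alpha chain of that laminin, was shared with vessels. It was at 87.6, 126 and 99.1 CPM in TEC and at 50.1, 56.5 and 91.7 CPM in EC, while FB held 0.348 to 3.15 CPM. The TEC and EC ranges overlapped across libraries, and the difference between these classes did not pass the test (log2 0.30, SE 0.40, adjusted p = 0.55), whereas EC exceeded FB by 5.03 (SE 0.50, adjusted p = 1.9e-05). Lama3 and Lamb3 were found together in 85 of 464, 101 of 426 and 242 of 867 TEC, or 18.3%, 23.7% and 27.9%, and in 2.44%, 2.20% and 2.01% of TEC thinned to 2000 UMIs, so the order of the libraries was not kept. In EC, they were found together in 10 of 1879, 0 of 818 and 2 of 857 cells, where a count of 0 of 818 allows a share of up to 0.367%. Thinned EC held both in 2 of 1582, 0 of 793 and 0 of 816 cells.

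Itgb4 and Itgb6 were the integrin chains called for TEC. Itgb4 (chr11:115974709-116008412, plus strand), the hemidesmosome partner of Itga6, was at 63.0, 72.9 and 83.4 CPM in TEC and at 17.0, 31.3 and 44.6 CPM in EC, with 7 CPM or less elsewhere. The libraries rank alike in both classes, the ranges do not overlap, and the difference was 0.91 (SE 0.29, adjusted p = 0.020). Itgb6 (chr2:60598292-60722643, minus strand), an epithelial chain that pairs with Itgav and binds latent transforming growth factor beta, was at 14.0, 17.6 and 14.1 CPM in TEC against 6.60 CPM or less in other classes, with a difference of 2.27 over mural cells (SE 0.59, largest adjusted p = 0.018). Neither call held under every choice of libraries. Without Foxn1Lin male the adjusted p rose to 0.095 for Itgb4 and 0.066 for Itgb6, and Itgb6 was at 0.40 without Foxn1Lin female and 0.067 without wild type male.

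**Figure D1:**
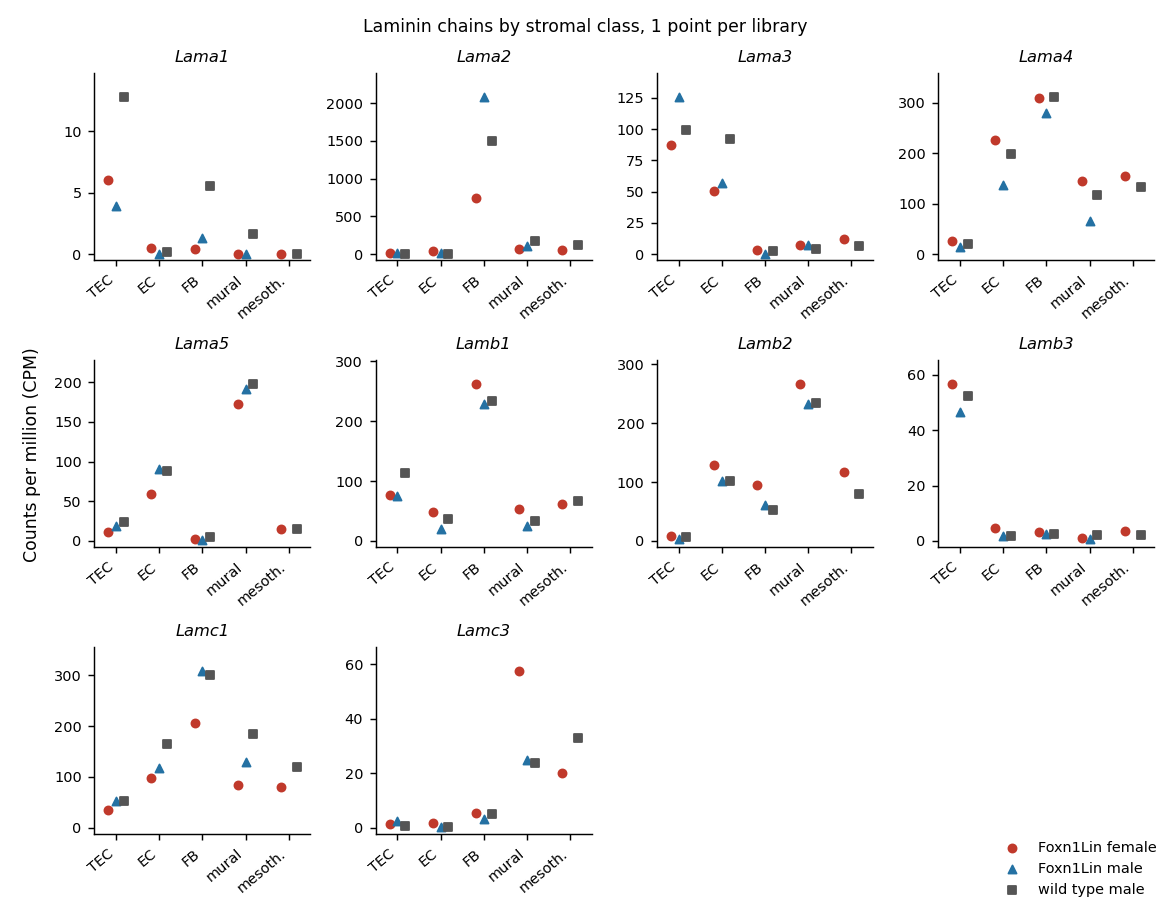
Levels in CPM (linear axes, each from 0) of 10 laminin chains in 5 stromal classes, with 1 point per library (mesothelial cells in 2 libraries). Lamb3 stands in TEC, Lama2 and Lamb1 in FB and Lama5 and Lamb2 in mural cells, while Lama3 is in TEC and EC.

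Itga6 (chr2:71745616-71858416, plus strand), the laminin receptor chain that pairs with Itgb1 or Itgb4, was called for EC. It was at 534, 373 and 602 CPM in EC and at 270, 270 and 378 CPM in TEC, while FB held 10.1 to 15.6 CPM. EC was higher than TEC in each of the 3 libraries, although the highest TEC library exceeded the lowest EC library. The difference was 1.06 (SE 0.25, adjusted p = 0.0038), and without wild type male it was 1.09 with an adjusted p of 0.052. Other gene models on the same strand overlap Itga6. Itga1, a collagen and laminin receptor chain, was at 684, 567 and 939 CPM in EC and 606, 358 and 609 CPM in mural cells, and these 2 classes did not differ beyond their spread (log2 0.52, SE 0.30, adjusted p = 0.20). Pelo lies within the span of Itga1 on the same strand.

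Fibroblasts led in 4 laminin chains. Lama2 (chr10:26980036-27619758, minus strand), the alpha chain of mesenchymal laminin, was at 745, 2086 and 1502 CPM in FB and at 63.9, 106 and 174 CPM in mural cells. TEC held 5.55 to 14.0 CPM. FB and mural cells differed by 3.62 (SE 0.71), with a largest adjusted p of 0.0066 over the other classes. A Lama2 UMI was found in 90.4%, 98.7% and 94.6% of FB. The 2 male libraries lie above Foxn1Lin female, and without wild type male the largest adjusted p was 0.075. Lamb1 (chr12:31265234-31329644, plus strand), a beta chain of many laminins, was at 263, 228 and 234 CPM in FB, against 76.7, 75.8 and 114 CPM in TEC (1.78, SE 0.23, largest adjusted p = 0.00039). Lamc1 (chr1:153218922-153332786, minus strand), the common gamma chain, was at 207, 309 and 301 CPM in FB and at 35.8, 52.7 and 52.7 CPM in TEC. FB exceeded EC by 1.07 (SE 0.17, largest adjusted p = 0.00096), and EC and mural cells did not pass the test of their difference (adjusted p = 0.98).

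Lama4 (chr10:38965515-39110188, plus strand) was at 309, 279 and 311 CPM in FB and at 226, 136 and 198 CPM in EC. The FB values stand above all EC values by a small margin of 0.69 (SE 0.17, adjusted p = 0.0068). That call was lost without either male library (adjusted p = 0.088 without Foxn1Lin male and 0.072 without wild type male) and without the library block (0.12). Itga11 (chr9:62677826-62783982, plus strand), a fibrillar collagen receptor chain, was the integrin called for FB. It was at 73.7, 11.0 and 21.7 CPM in FB and at 8.31 CPM or less in every other class, with a difference of 2.93 (SE 0.55, largest adjusted p = 0.0029). Foxn1Lin female stood above the other FB libraries, and the adjusted p was 0.19 without it and 0.12 without the library block.

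In mural cells the laminin chains were Lama5 and Lamb2. Lama5 (chr2:180176373-180225859, minus strand), an alpha chain of mature vessel walls and many epithelia, was at 173, 192 and 198 CPM in mural cells, 59.2, 91.1 and 88.0 CPM in EC and 1.51 to 4.93 CPM in FB. Mural cells exceeded EC by 1.20 (SE 0.25, adjusted p = 0.0033). Lamb2 (chr9:108479736-108490530, plus strand), the beta chain of muscle and vessel laminins, was at 267, 233 and 234 CPM in mural cells, 129, 102 and 102 CPM in EC and 4.04 to 8.14 CPM in TEC. It exceeded EC by 1.09 (SE 0.20, adjusted p = 0.0013), with an adjusted p of 0.061 without wild type male. Lamc3 was at 57.6, 24.8 and 23.7 CPM in mural cells and at 20.2 and 33.0 CPM in mesothelial cells, and these did not differ beyond their spread (adjusted p = 0.48).

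The largest fitted difference of an integrin was that of Itga7. Itga7 (chr10:128933818-128958282, plus strand), the laminin receptor chain of muscle, was at 211, 178 and 286 CPM in mural cells and at 4.20 CPM or less in every other library and class, a difference of 6.24 over FB (SE 0.42, largest adjusted p = 4.9e-05). Itga10 (chr3:96645584-96664519, plus strand), a collagen receptor chain, was at 13.0, 14.2 and 32.0 CPM in mural cells and at 4.40 CPM or less elsewhere (2.47, SE 0.34, largest adjusted p = 0.0032). Itga8 (chr2:12106632-12301922, minus strand), a receptor chain for nephronectin that pairs with Itgb1, was at 97.6, 136 and 210 CPM in mural cells and 23.6, 35.1 and 71.5 CPM in FB (1.82, SE 0.34, adjusted p = 0.0030). Mesothelial cells held 0 UMIs of it. Itgb1 (chr8:128685654-128733200, plus strand), the beta chain shared by most of these alpha chains, was present in each class, at 746, 689 and 730 CPM in mural cells, 430 to 464 CPM in EC and 144 to 241 CPM in TEC (0.65 over EC, SE 0.17, adjusted p = 0.012). Leaving out 1 library took the call from Itga10 (0.082 without Foxn1Lin female, 0.075 without wild type male), from Itga8 (0.062 without Foxn1Lin male) and from Itgb1 (0.050 without Foxn1Lin male, 0.12 without wild type male).

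Of the 15 calls, Lamb3, Lamb1, Lamc1, Lama5 and Itga7 held under each of the other settings tried, those without 1 library included. With edgeR, no member was called for mesothelial cells, 1 of 35 was higher there at an unadjusted p under 0.05 (Itgb3), and DESeq2 called 0. Itgb3, the beta chain of the vitronectin receptor, was at 52.2 and 24.2 CPM in mesothelial cells and at 27.1, 4.64 and 5.32 CPM in FB (log2 1.49, SE 0.53, adjusted p = 0.067). The remaining tested integrins outside the leukocyte group were spread over several classes: Itgav was at 180 to 264 CPM in TEC, FB and mesothelial cells, Itga5 at 181 to 358 CPM in FB and 126 to 217 CPM in EC, Itgb5 at 108 to 167 CPM in mural cells and 83.0 to 112 CPM in FB, Itga3 at 43.8 to 60.7 CPM in TEC, and Itgb8 at 54.9 to 80.4 CPM in TEC. Itga9 was at 32.8 to 69.8 CPM in FB and 38.9 to 58.7 CPM in mural cells, and Itga2 stayed at 23.6 CPM or less in every class. For each of these genes the highest 2 classes did not pass the test of their difference, with adjusted p from 0.14 to 0.90. Lama1 was at 5.99, 3.88 and 12.8 CPM in TEC and at 0.419, 1.27 and 5.52 CPM in FB (log2 1.62, SE 0.69, adjusted p = 0.070).

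**Figure D2:**
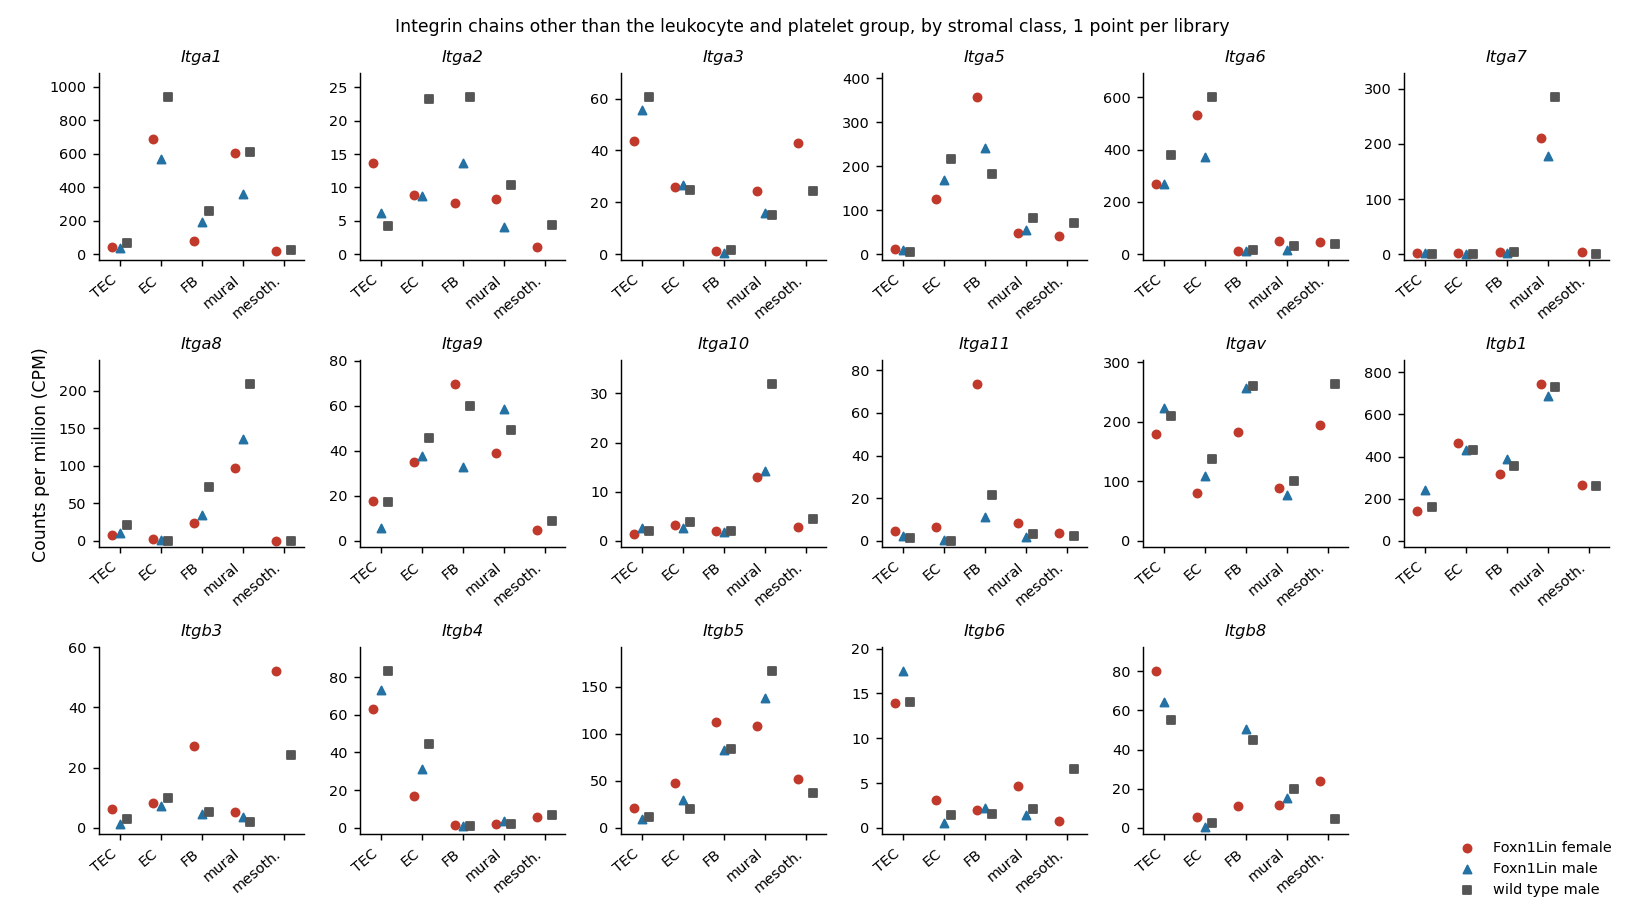
Levels in CPM (linear axes, each from 0) of 17 integrin chains in 5 stromal classes, with 1 point per library. Itga7 is at 178 to 286 CPM in mural cells and at 4.20 CPM or less elsewhere, and Itga6 is highest in EC and TEC.

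The leukocyte and platelet integrins (Itgal, Itgam, Itgax, Itgad, Itgae, Itgb2, Itgb2l, Itgb7, Itga2b and Itga4) stayed low, and 0 of the 8 tested were called for a class with edgeR. Their highest value was 24.5 CPM, for Itga4 in wild type mural cells. Itgal, the alpha chain of the T cell integrin that binds intercellular adhesion molecules, was in TEC at 8.91, 2.95 and 8.02 CPM, and in EC at 5.66, 1.58 and 12.2 CPM. The 10 hematopoietic markers summed to 815, 494 and 448 CPM in TEC, 173, 74.9 and 207 CPM in EC and 18.4 to 78.8 CPM in FB, and each of the 10 was above 0 in at least 1 library of these classes. Ptprc, the gene of CD45, was in TEC at 25.0, 6.06 and 7.31 CPM, and in EC at 29.2, 17.2 and 63.9 CPM. The part of hematopoietic RNA in these integrins was not tested. Itga2b, the platelet chain, was at 3.32 to 12.3 CPM over all classes and libraries, while the 6 platelet markers summed to 15.4 CPM or less.

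Genes that work with these chains were taken from lists chosen with earlier results of these data known. Their counts are set beside the 10.6%, 7.2%, 2.67%, 4.36% and 3.16% of all genes called for TEC, EC, FB, mural and mesothelial cells. Of 6 hemidesmosome and other laminin receptor genes, 1 was called for TEC and 1 for mesothelial cells. Col17a1, the transmembrane collagen of hemidesmosomes, was at 19.7, 7.61 and 9.61 CPM in TEC and at 2.10 CPM or less elsewhere (2.40, SE 0.48, largest adjusted p = 0.0017). Cd151, a tetraspanin bound to laminin receptors, was at 269 and 191 CPM in mesothelial cells and at 117 to 153 CPM in mural cells (0.85, SE 0.19, largest adjusted p = 0.0063). Of 9 basement membrane genes, 1 was called for EC, 2 for FB and 1 for mural cells. Ntn4, a netrin that binds laminin gamma chains, led the list in mural cells at 202, 150 and 205 CPM (2.03, SE 0.32, largest adjusted p = 0.00083). In FB, Col15a1, a collagen of basement membrane zones, was at 511, 726 and 1063 CPM (1.48, SE 0.43, largest adjusted p = 0.018) and Nid1, the link between laminin and collagen IV, at 805, 407 and 380 CPM (1.39, SE 0.24, largest adjusted p = 0.00086). Col4a2 was called for EC (1.13, SE 0.29, largest adjusted p = 0.0092).

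Of 17 integrin adaptors, 1 was called for TEC, 3 for EC, 0 for FB and 5 for mural cells, a share above the background in mural cells and EC and below it in TEC and FB. Fermt1, the epithelial kindlin that activates integrins, was at 144, 111 and 105 CPM in TEC and at 16.1 CPM or less elsewhere (3.49, SE 0.53, largest adjusted p = 0.00030). Lims2 (1.64, SE 0.33), Parvb (1.58, SE 0.51) and Ptk2, the focal adhesion kinase (1.07, SE 0.22), were called for EC with largest adjusted p of 0.0025, 0.033 and 0.0024. The mural genes were Fermt2, Ilk, Lims1, Tln1 and Tns1, with smallest differences between 0.50 and 0.84. Of 17 ligands other than laminin, 3 were called for TEC, 2 for EC, 1 for FB and 1 for mural cells. Cdh1, the epithelial cadherin that Itgae binds, was at 478, 700 and 785 CPM in TEC (5.82, SE 0.53, largest adjusted p = 5.7e-05), and Madcam1, the ligand of the pair of Itga4 and Itgb7, was at 25.7, 17.4 and 10.3 CPM there and at 0.534 CPM or less in other classes (5.61, SE 0.66, largest adjusted p = 0.0019). Icam2 was at 265, 136 and 129 CPM in EC (5.34, SE 0.41, largest adjusted p = 1.9e-05) and Fbn1 at 895, 496 and 718 CPM in FB (2.35, SE 0.29, largest adjusted p = 0.00023).

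Within TEC, gates followed genes that the study names for subsets: Psmb11 (cortical TEC), Ccl21a (mTEC1), Aire (mTEC2) and Cldn3 (age-associated aaTEC1). A barcode needed at least 1 UMI of Psmb11 or Aire, 2 of Cldn3 or 3 of Ccl21a, and barcodes in several gates were dropped. The study defines aaTEC1 by Cldn3 together with other markers, so the Cldn3 gate is not the same as aaTEC1. The gates held 65, 15 and 71, 40, 81 and 94, 87, 50 and 119, and 64, 49 and 149 cells. The 15 Psmb11 cells of Foxn1Lin male were left out of the fit for being too few. Lamb3 and Lama3 were higher in the Psmb11 and Ccl21a gates than in the Aire gate. Lamb3 was at 136 and 116 CPM in the Psmb11 gate (Foxn1Lin female and wild type), 52.4, 91.3 and 82.2 CPM in the Ccl21a gate, 10.7, 3.94 and 14.0 CPM in the Aire gate and 7.97, 20.4 and 28.6 CPM in the Cldn3 gate. The first 2 gates do not overlap with the last 2. The Psmb11 gate exceeded the Aire gate by 3.59 (SE 0.46, adjusted p = 0.00028) and the Cldn3 gate by 2.67 (SE 0.44, adjusted p = 0.0025), and did not differ from the Ccl21a gate beyond the spread (adjusted p = 0.33).

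Lama3 was likewise higher in the Psmb11 and Ccl21a gates, at 115 and 140 CPM in the Psmb11 gate, 165, 130 and 180 CPM in the Ccl21a gate, 47.1, 38.1 and 63.4 CPM in the Aire gate and 17.3, 35.9 and 49.3 CPM in the Cldn3 gate. The Ccl21a gate exceeded the Cldn3 gate by 2.15 (SE 0.28, adjusted p = 0.00094). It also exceeded the Aire gate by 1.61 (SE 0.27, adjusted p = 0.0012).

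Calls for a single TEC gate were few: 0 of 26 members tested for the Psmb11 gate, 1 for the Ccl21a gate, 2 for the Aire gate and 0 for the Cldn3 gate, where 1.8%, 0.947%, 10.4% and 2.9% of the 12677 genes tested were called. By unadjusted p in edgeR, 1 member (Itgb2) was higher in the Psmb11 gate and 0 in the Cldn3 gate, and DESeq2 called 2 members over all gates. Itga6 was at 617, 350 and 678 CPM in the Ccl21a gate and 313, 255 and 335 CPM in the Aire gate (0.75, SE 0.19, largest adjusted p = 0.023). Itgb4, which the study lists among its mTEC1 markers, was at 127, 102 and 136 CPM in the Ccl21a gate and at 69.7 and 93.9 CPM in the Psmb11 gate, which it did not exceed at the threshold (adjusted p = 0.068). Itgb8, which pairs with Itgav and activates transforming growth factor beta, was at 172, 218 and 158 CPM in the Aire gate, 134, 63.5 and 48.0 CPM in the Cldn3 gate, 5.51, 21.0 and 23.7 CPM in the Ccl21a gate and 9.96 and 1.41 CPM in the Psmb11 gate (1.32 over the Cldn3 gate, SE 0.42, adjusted p = 0.036). Itgb3 was at 22.2, 0 and 9.63 CPM in the Aire gate, on 25, 0 and 22 UMIs (2.50, SE 0.79, largest adjusted p = 0.049).

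These calls depended on the settings. Itga6 in the Ccl21a gate was lost without the library block (adjusted p = 0.21), and Itgb8 in the Aire gate with doublet scores removed (0.089), without the block (0.093) and after thinning (0.052). Itgb3 there was lost with library totals alone (0.054), without the filter on low counts (0.054), with DESeq2 (0.084) and without the block (0.25). The number of members called for a TEC gate was 1 without Foxn1Lin female, 2 without Foxn1Lin male and 0 without wild type male, and 0 without the library block. Itgb6 was at 17.8, 42.0 and 25.8 CPM in the Aire gate and 29.2, 5.99 and 20.4 CPM in the Cldn3 gate, with 2 and 1 UMIs in the Psmb11 gate, and the Aire and Cldn3 gates did not differ beyond their spread (adjusted p = 0.38).

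**Figure D3:**
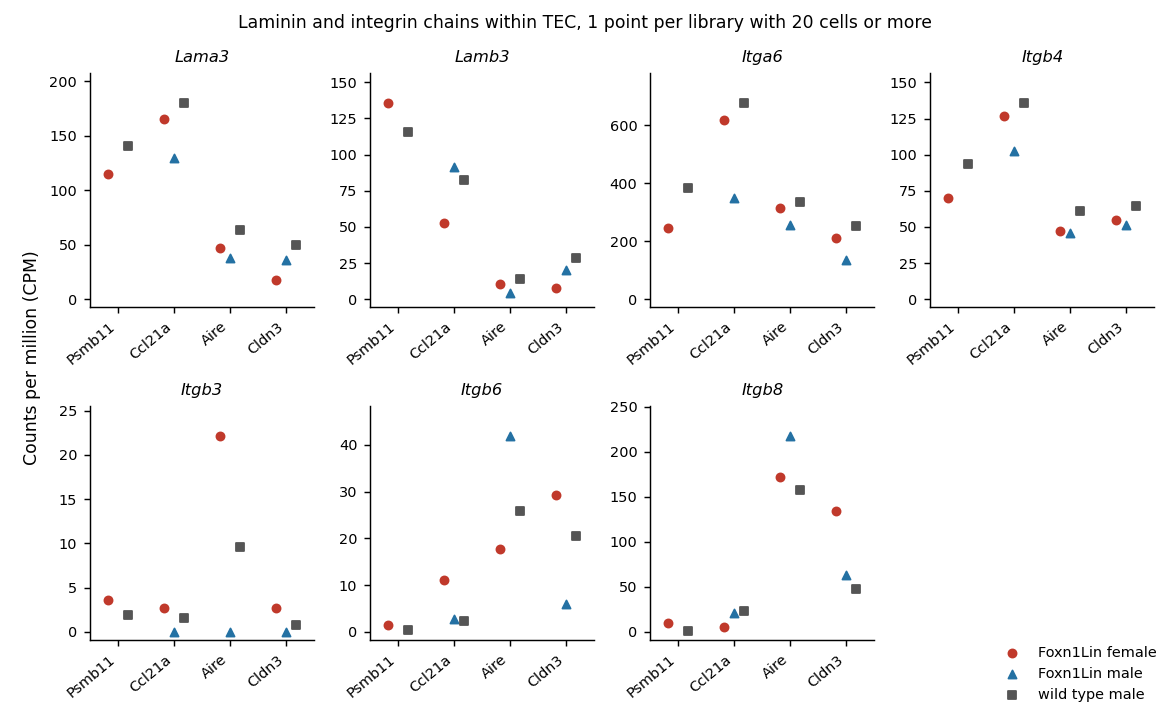
Levels in CPM (linear axes, each from 0) of 7 members in 4 gates within TEC, with 1 point per library that had at least 20 cells. Lama3 and Lamb3 are lower in the Aire gate than in the Psmb11 and Ccl21a gates, and Itgb8 is highest in the Aire gate in each library.

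Mural cells were split into a pericyte gate (at least 5 Rgs5 UMIs and none of Myh11; 87, 46 and 27 cells) and a smooth muscle gate (at least 2 Myh11 UMIs; 285, 347 and 288 cells). Of 21 members tested, 5 were higher in the Rgs5 gate and 6 in the Myh11 gate, where 5.37% and 7.73% of the 9547 genes tested were. The 2 laminin chains called for mural cells belonged to the smooth muscle gate. Lama5 was at 246, 228 and 236 CPM in the Myh11 gate and 2.77, 25.7 and 31.8 CPM in the Rgs5 gate, on 1, 6 and 5 UMIs there (4.03, SE 0.45, adjusted p = 0.00023). Lamb2 was at 351, 265 and 270 CPM against 80.4, 98.6 and 69.9 CPM (2.05, SE 0.26, adjusted p = 0.00046). Lama2, Lamb1 and Lama4 were higher in the Rgs5 gate. Lama2 was at 136, 373 and 654 CPM there and 36.7, 61.9 and 119 CPM in the Myh11 gate (2.13, SE 0.24, adjusted p = 0.00023), Lamb1 at 128, 81.4 and 133 CPM against 24.7, 18.1 and 18.7 CPM (2.23, SE 0.29, adjusted p = 0.00052), and Lama4 at 205, 180 and 299 CPM against 122, 55.6 and 96.0 CPM (1.13, SE 0.26, adjusted p = 0.015). The Lama4 call was lost without the library block (adjusted p = 0.096) and without Foxn1Lin male (0.064).

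Among integrins, Itga8 was at 138, 156 and 242 CPM in the Myh11 gate and 5.54, 30.0 and 88.9 CPM in the Rgs5 gate (2.64, SE 0.42, adjusted p = 0.0017), and Itga7 at 243, 198 and 329 CPM against 150, 94.3 and 95.3 CPM (1.34, SE 0.26, adjusted p = 0.0054). Both gates held Itga7, so it was common to mural cells. Itga10 (2.60, adjusted p = 0.018) and Itga3 (3.48, adjusted p = 0.011) were higher in the Myh11 gate although the Rgs5 gate held 1 UMI of Itga10 per library and 2, 0 and 0 UMIs of Itga3, so these fitted folds depend on the prior count and are no bounds. The Itga10 call was lost with DESeq2 (adjusted p = 0.13), without Foxn1Lin female (0.081) and without wild type male (0.067). Itga6 was at 136, 12.9 and 95.3 CPM in the Rgs5 gate and 18.0, 12.2 and 16.2 CPM in the Myh11 gate (1.98, SE 0.45, adjusted p = 0.013), where Foxn1Lin male had 3 UMIs and showed no such gap, and the call was lost after thinning (adjusted p = 0.074) and without Foxn1Lin female (0.13). Itga5 was higher in the Rgs5 gate by 1.03 (SE 0.29, adjusted p = 0.035), a call that was lost with DESeq2 (adjusted p = 0.10), without the library block (0.17), after thinning (0.37) and without Foxn1Lin male (0.21) or wild type male (0.063).

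Fibroblasts were split by the genes that the study gives for capsular (Pi16) and medullary (Ptn) fibroblasts. The Pi16 gate asked for at least 1 UMI of Pi16 and under 2 of Ptn, and the Ptn gate for at least 2 of Ptn and none of Pi16. The Pi16 gate held 878, 78 and 190 cells and the Ptn gate 337, 630 and 1174, so Pi16 cells were 47.4%, 9.03% and 11.1% of FB. Median UMIs per cell were 8378, 10113 and 8248 in the Pi16 gate and 5791, 9455 and 8471 in the Ptn gate. The part of depth in these shares was not tested. Of 25 members tested, 5 were higher in the Pi16 gate and 8 in the Ptn gate, where 10.4% and 12.4% of the 12903 genes tested were. Itga1 and Itga11, receptor chains for network-forming and fibrillar collagens, went opposite ways. Itga11 was at 107, 54.3 and 100 CPM in the Pi16 gate and 16.6, 5.64 and 8.43 CPM in the Ptn gate (3.20, SE 0.20, adjusted p = 1.6e-07). Itga1 was at 35.7, 14.8 and 24.5 CPM in the Pi16 gate and 199, 227 and 312 CPM in the Ptn gate, higher in the latter by 3.17 (SE 0.25, adjusted p = 8.3e-07). Neither pair of ranges overlapped.

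Itgb3 was at 39.4, 14.8 and 28.1 CPM in the Pi16 gate and 4.62, 2.66 and 1.58 CPM in the Ptn gate (3.36, SE 0.32, adjusted p = 4.1e-06), while Itgb8 was at 5.31, 18.5 and 8.37 CPM against 23.1, 57.5 and 54.4 CPM, higher in the Ptn gate (2.17, SE 0.23, adjusted p = 1.2e-05). Both beta chains can pair with Itgav, which differed little (0.57 higher in the Ptn gate, SE 0.17, adjusted p = 0.031). Itga8 was higher in the Ptn gate, at 51.7, 34.6 and 83.1 CPM against 14.2, 4.94 and 5.98 CPM (2.53, SE 0.29, adjusted p = 2.6e-05). Itga2 and Itga6 were higher there by 1.65 and 1.74, and Itga5 and Itgb5 were higher in the Pi16 gate by 0.90 and 0.76. Of the laminin chains, Lama2 was at 676, 887 and 683 CPM in the Pi16 gate and 970, 2265 and 1675 CPM in the Ptn gate (1.06, SE 0.19, adjusted p = 0.0011), and Lamb2 was higher in the Pi16 gate by 0.68 (SE 0.15, adjusted p = 0.0040). Lamb3 was called for the Ptn gate at 9.70, 3.13 and 3.06 CPM, with 14, 0 and 0 UMIs in the Pi16 gate. Without the library block the calls of Lamb3 (adjusted p = 0.18), Lamb2 (0.084) and Itgav (0.12) were lost, and that of Itgav also without Foxn1Lin male (0.28). Lama4, Lamb1 and Lamc1, which were called for FB as a class, did not pass between the gates (adjusted p = 0.62, 0.42 and 0.32).

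**Figure D4:**
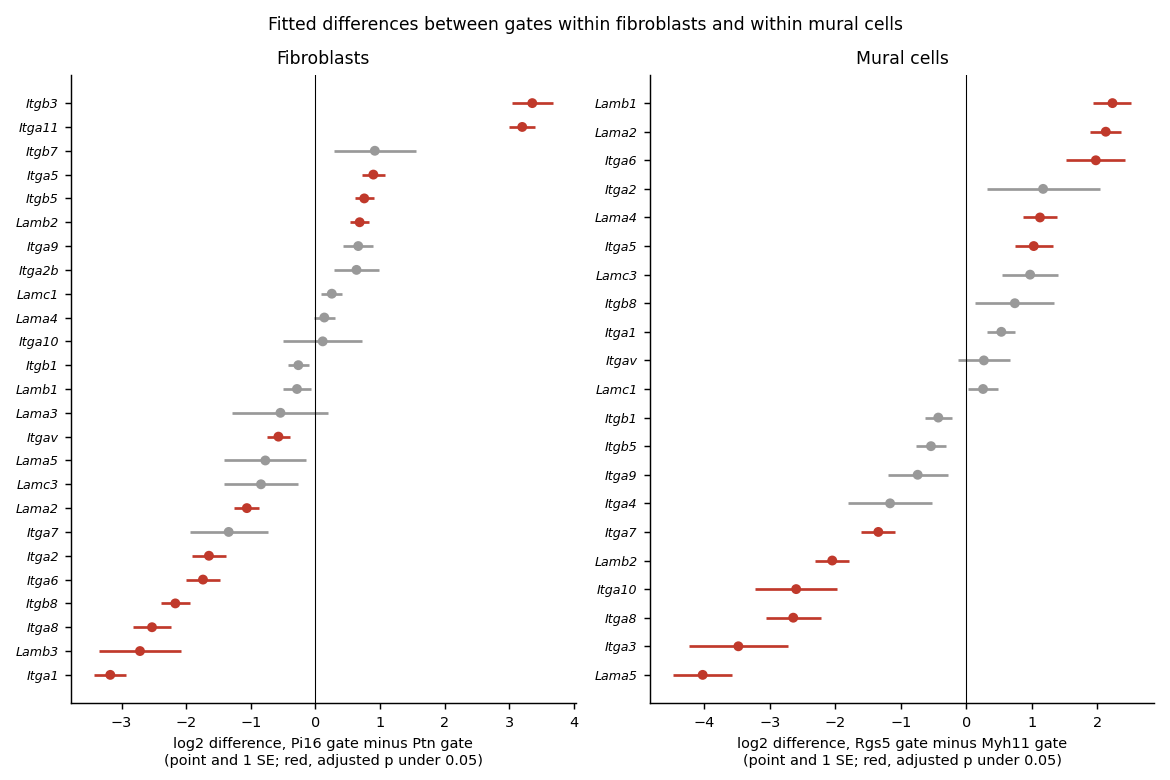
Fitted log2 differences (points, with 1 SE as lines) between the Pi16 and Ptn gates of fibroblasts for 25 members, and between the Rgs5 and Myh11 gates of mural cells for 21, red where the adjusted p is under 0.05. Itgb3 and Itga11 lie at the Pi16 end and Itga1 at the Ptn end, and Lamb1 and Lama2 lie at the Rgs5 end and Lama5 at the Myh11 end.

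Between libraries there is 1 library per group, so ratios within a class have no test, and their 95% intervals cover counting error only. A ratio was counted when it was at least 2-fold with at least 50 UMIs in both libraries together. Foxn1Lin female and Foxn1Lin male differ in labelled sex and library, Foxn1Lin male and wild type male in genotype and library, and these cannot be told apart. Between Foxn1Lin female and Foxn1Lin male, 5 of 26 members were past 2-fold in TEC, 7 of 26 in EC, 9 of 24 in FB and 4 of 19 in mural cells, where 12.8%, 13.1%, 14.6% and 9.6% of all genes were. Between Foxn1Lin male and wild type male, 7 of 30 were past 2-fold in TEC, 4 of 22 in EC, 3 of 24 in FB and 3 of 20 in mural cells, where 10.7%, 6.53%, 7.97% and 7.27% of all genes were. With CPM scaled by TMM, Lamb2 in TEC (0.90) and Lamb1 in mural cells (0.94) of the first comparison, and Itga8 in FB (-0.94) and Itga6 in mural cells (-0.96) of the second, were under 2-fold, and Itgb4 in EC of the first passed it (-1.02, against -0.88 unscaled).

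In FB, Itga11 (log2 2.74, interval 2.44 to 3.06) and Itgb3 (2.55, 2.08 to 3.06) were higher in Foxn1Lin female than in Foxn1Lin male, and Itgb8 (-2.20, -2.47 to -1.93), Lama2 (-1.49, -1.52 to -1.45) and Itga1 (-1.32, -1.44 to -1.21) were lower. The 6 mesothelial markers summed to 291, 53.0 and 106 CPM in FB, and Itgb3 was highest in mesothelial cells. The part of mesothelial RNA in these ratios was not tested. The 5 genes also differed between the Pi16 and Ptn gates, and the Pi16 share of FB was 47.4% in the first library and 9.03% in the second. Ratios within gates were added after the ratios of whole classes had been seen. Within the Pi16 gate the Itga11 difference was 0.98 (0.54 to 1.45) and within the Ptn gate 1.56 (0.85 to 2.27). For Itga1 it was 1.27 (0.44 to 2.24) within the Pi16 gate and -0.19 (-0.35 to -0.03) within the Ptn gate, so the direction of the whole class was not that of the Pi16 gate. Lama2 was lower in Foxn1Lin female by -0.39 (-0.50 to -0.28) within the Pi16 gate and by -1.22 (-1.29 to -1.16) within the Ptn gate, and Itgb8 by -1.80 and -1.32. Itga9 (1.09, 0.90 to 1.29) was higher within the Pi16 gate (1.45) and level within the Ptn gate (-0.02, -0.45 to 0.40). Itga2b, Itgal and Itgb7 were also past 2-fold in FB, on 203, 56 and 75 UMIs over both libraries. The hematopoietic markers summed to 78.8, 18.4 and 20.4 CPM in FB, highest in the same library, and their part in these ratios was not tested.

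**Figure D5:**
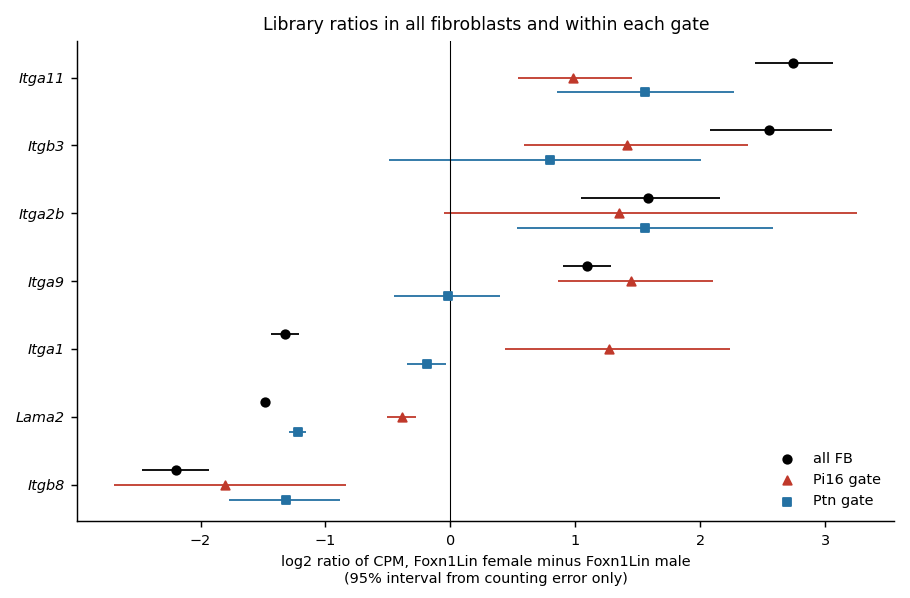
The log2 ratio of CPM of Foxn1Lin female to Foxn1Lin male for 7 members past 2-fold in FB that had over 3 UMIs in each library and gate, in all FB and within the Pi16 and Ptn gates, with 95% intervals from counting error. For Itga11 and Itgb3 the values within gates are nearer to 0 than in all FB, and Itga1 changes sign in the Pi16 gate.

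In EC, Lama2 (2.13, 1.75 to 2.53), Itga11 (3.68, 2.25 to 5.60) and Itgb8 (3.46, 2.02 to 5.38) were higher in Foxn1Lin female than in Foxn1Lin male, at 38.0 against 8.67 CPM, 6.73 against 0.526 CPM and 5.77 against 0.526 CPM. Lamb1 (1.22), Lamb3 (1.46), Itga4 (2.66) and Itgal (1.84) were past 2-fold the same way. The FB markers summed to 817, 72.9 and 108 CPM in EC of the 3 libraries, and the TEC markers to 340, 148 and 238 CPM. The mesothelial markers summed to 34.6, 1.18 and 2.95 CPM there, the lymphatic EC markers to 106, 37.3 and 46.3 CPM and the hematopoietic markers to 173, 74.9 and 207 CPM. The platelet markers went the other way between the Foxn1Lin libraries (9.19 against 15.0 CPM). In droplets outside the called cells, the level of each of these 7 genes was above its EC level in both Foxn1Lin libraries. Between these libraries the droplets ran the same way as EC for Itga11 (17.9 against 3.81 CPM), Itgal (40.1 against 21.6 CPM) and Itga4 (25.5 against 19.5 CPM), and the other way for Lama2 (73.9 against 175 CPM), Itgb8 (16.7 against 34.3 CPM), Lamb1 (72.6 against 79.7 CPM) and Lamb3 (21.8 against 25.1 CPM). The part of RNA from other cells in these EC ratios was not tested. 

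Among TEC, Itga9 was at 17.5, 5.90 and 17.1 CPM, and Foxn1Lin male was the low library in both comparisons (1.57 below the female and 1.53 below wild type). The gates held different shares of TEC: Psmb11 14.0%, 3.52% and 8.19%, Ccl21a 8.62%, 19.0% and 10.8%, Aire 18.8%, 11.7% and 13.7%, and Cldn3 13.8%, 11.5% and 17.2%. Itga9 was at 37.3, 5.25 and 15.8 CPM in the Aire gate and at 23.9, 19.2 and 24.5 CPM in the Cldn3 gate, where the intervals of both ratios include 0. Itgal, an integrin of leukocytes, was likewise lowest in Foxn1Lin male over the whole class, at 8.91, 2.95 and 8.02 CPM, but not in the Aire gate, at 4.44, 13.1 and 7.44 CPM on 5, 10 and 17 UMIs. Itga2 (1.14), Itgb5 (1.24) and Lamb2 (1.01) were past 2-fold between Foxn1Lin female and Foxn1Lin male. Within the Aire gate Itgb5 (-0.51, -1.37 to 0.37) and Lamb2 (-0.56, -2.99 to 1.86) had the opposite sign, with intervals that include 0, and within the Ccl21a gate they were at 2.23 (0.92 to 3.62) and 2.08 (0.21 to 4.08). In TEC the FB markers summed to 445, 284 and 285 CPM, the EC markers to 95.9, 39.5 and 41.5 CPM and the mesothelial markers to 114, 65.3 and 59.7 CPM, each highest in Foxn1Lin female, and Lamb2 and Itgb5 were higher in those classes than in TEC. The part of RNA from other cells in these TEC ratios was not tested. Lama1 was lower in Foxn1Lin male than in wild type by -1.72 (-2.38 to -1.12), and it was at 3.65 against 42.7 CPM in the Ccl21a gate and on 1 against 46 UMIs in the Cldn3 gate, also lower. In the Aire gate it was at 11.8 against 6.13 CPM (0.95, -0.44 to 2.26), and in the Psmb11 gate at 2 against 0 UMIs. Lama2 was higher by 1.34 (0.91 to 1.76), at 14.0 against 5.55 CPM, while Itgam, Itgb2 and Itgb3 were lower on 73, 58 and 62 UMIs over both libraries.

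In mural cells, Itga6 was at 48.8, 14.9 and 30.7 CPM, the lowest in Foxn1Lin male against both other libraries (1.71 and 1.04), and the Rgs5 gate, which held 49 of 94, 3 of 41 and 15 of 74 of its UMIs, was 20.4%, 10.2% and 7.67% of mural cells. Lamc3 (1.22, 0.77 to 1.67), Lama4 (1.16, 0.89 to 1.44) and Lamb1 (1.07, 0.62 to 1.53) were higher in Foxn1Lin female than in Foxn1Lin male. Within the Rgs5 gate Lamc3 was at 1.80 (0.82 to 2.94) and Lama4 at 0.19 (-0.38 to 0.77), and within the Myh11 gate Lamc3 was at 0.32 (-0.28 to 0.92) and Lama4 at 1.14 (0.79 to 1.49). Lamb1 was at 0.65 and 0.45 in these gates, with intervals that include 0. In mural cells the EC markers summed to 435, 77.3 and 59.8 CPM and the TEC markers to 409, 116 and 301 CPM, both highest in Foxn1Lin female, and Lama4 and Itga6 were at higher levels in EC than in mural cells. The Schwann markers (35.8, 7.29 and 16.6 CPM) and mesothelial markers (29.6, 15.3 and 5.81 CPM) were also highest in Foxn1Lin female. The FB markers were lowest in that library, at 949, 1166 and 980 CPM. The part of RNA from other cells in these mural ratios was not tested. Itga10 (-1.17, -1.76 to -0.60) and Itga4 (-2.75, -3.88 to -1.77) were lower in Foxn1Lin male than in wild type. The hematopoietic markers in mural cells summed to 115, 32.1 and 57.3 CPM, also lowest in Foxn1Lin male, and their part in the Itga4 ratio was not tested. Among EC, Itga4 was at 7.48, 1.18 and 7.77 CPM and Itgal at 5.66, 1.58 and 12.2 CPM, both lowest in Foxn1Lin male, where the hematopoietic markers summed to 173, 74.9 and 207 CPM, and Itga2 at 8.87, 8.67 and 23.3 CPM. Itga2b in EC was higher in Foxn1Lin male than in wild type by 1.10, where the platelet markers summed to 9.19, 15.0 and 2.41 CPM over the 3 libraries. The part of platelet RNA in this ratio was not tested. In FB, Itga8 (-1.03, -1.21 to -0.84), Lama5 (-1.71) and Lama1 (-2.11) were lower in Foxn1Lin male than in wild type, the last 2 on 88 and 95 UMIs over both libraries. In FB of these libraries the TEC markers summed to 94.1 against 157 CPM, the mesothelial markers to 53.0 against 106 CPM and the Schwann markers to 6.49 against 25.0 CPM, and their part in these ratios was not tested. Itga8 was lower by -1.26 (-1.48 to -1.05) within the Ptn gate and by -0.28 (-2.40 to 1.52) within the Pi16 gate.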

How the data were processed

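Single-cell RNA sequencing libraries of CD45- thymic cells (10x Genomics 3' kit, per the labels) were deposited as matrices of raw UMI counts per gene and cell barcode, which the authors made with Cell Ranger 7.0.1 on mm10 with reporter sequences added. Cell Ranger of that version counts reads in introns by default, so long genes can gain counts within introns, and counting is by strand. Levels of different genes are therefore not compared. Called barcodes with 1000 genes or fewer and 20% or more mitochondrial counts were removed, which kept 8478, 3434 and 5256 cells. Classes came from gates on raw counts, as given above, rather than from clusters or the study's annotation. Doublets were lessened only by dropping barcodes in several classes (594, 174 and 445). Scrublet in scanpy 1.11.5 marked 1, 11 and 3 cells at its automatic threshold and so did not work here, and as an alternative the highest scores, by the multiplet rate of 3.9% in the labels with ties included, were removed (361, 140 and 225 called cells). The members and gene lists were chosen with earlier results of these data known, and 1 gene that meets the rule is not reported here.

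Counts were summed per library and class, sums of under 20 cells were left out, and edgeR 4.0.16 (TMM factors, quasi-likelihood test, library as a block, filterByExpr) gave log2 differences with SE. Gate genes and 8 transgenes were not tested. The test was run on simulated data with the same set spread for every gene and no difference between libraries beyond depth. That run does not cover the spread between these libraries. The 95% intervals of ratios are exact, conditional on the total, and cover counting error only, and a count of 0 allows 3 counts. Thinning to 2000 UMIs left out 3 to 297 shallower cells per class and library (0 wild type mesothelial cells). Droplets outside called cells were those with 20 to 500 UMIs, a window set after the data were seen. Gene positions on GRCm38 came from GENCODE vM21. Named were the laminin chains, the integrins called for a class, the remaining integrins by ranges, up to 4 genes per list by fold, and between libraries the members past 2-fold. Alternatives were no cell filter, doublet scores, RLE factors, library totals, no filter on low counts, DESeq2 1.42.0, no library block, each library left out, thinning, doubled gates and no mesothelial class. The deposited library summaries were not used.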

Additional observations from a re-analysis of the deposited data

Results flagged for a closer look

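For 2 members, ratios between Foxn1Lin female and Foxn1Lin male were past 2-fold in opposite directions in 2 classes. The log2 ratio of Itgb8 was 3.46 in EC and -2.20 in FB. That of Lama2 was 2.13 in EC and -1.49 in FB. The difference between the classes was not tested, since each group has 1 library. The EC values rest on 58 and 422 UMIs over both libraries, against 595 and 28651 in FB.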

How the results depend on the processing

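Of 42 single-gene calls, 30 held under each alternative run on them that kept the 3 libraries (thinning gave a value for 38, and doubled gates and no mesothelial class for the 15 calls of classes) and 22 also held with each library left out, and no direction reversed. Members called for FB numbered 3 without the library block (5 with it), those called for 1 TEC gate 0 without the block and 1 after thinning (3 as reported), and those different between mural gates 7 after thinning (11 as reported). Leaving out each library in turn gave 0 to 2 members for EC, 1 to 2 for TEC, 3 to 6 for mural cells and 0 to 2 for the TEC gates. With at least 200 UMIs asked of a ratio, 10 members by class were past 2-fold between Foxn1Lin female and Foxn1Lin male and 4 between Foxn1Lin male and wild type, against 25 and 17 as reported, and thinning gave 12 and 3. Fewer counts pass each of these limits. With at least 20 UMIs asked, 38 were past 2-fold in the first comparison. The cause of the changes without the block or with 2 libraries was not tested. All 45 shares of called members fell outside their intervals after thinning, and none did without the cell filter. The Psmb11 gate of Foxn1Lin male (15 cells) and mesothelial cells of that library (0 cells) gave no sum. Between groups, no paired analysis was possible because each group has 1 library and the groups share fewer than 2 replicate numbers. Classes and gates were compared within libraries, by the library block.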
